A study of Mus musculus with 2 samples.

Results

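The 9 genes described here encode transcription factors that mark cranial and sensory neurons and their precursors: Phox2a, Pou4f1, Tlx3, Neurog1, Neurog2, Neurod1, Neurod4, Nhlh1 and Gata3. They were chosen by symbol from the 32285 genes in the count files. No cut on their values was used, but earlier results of these data were known when the genes were chosen. Their RNA was read in neurons, defined as cells with at least 1 UMI (unique molecular identifier, a count of captured RNA molecules) of each of Tubb3, Elavl3 and Stmn3, genes of neuronal tubulin, of a neuronal RNA-binding protein and of a neuronal microtubule regulator. This gate held 573 of the 6272 cells that had more than 2000 and fewer than 9000 detected genes and less than 10% mitochondrial UMIs.

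The cells were eYFP-positive cells sorted from mouse embryos at E13.5, the embryonic day, and the study asked how an activating Pik3ca mutation in this Isl1 lineage changes gene expression in the endothelial cells of vascular malformations. The control genotype was Isl1-Cre;R26R-eYFP and the mutant genotype was Isl1-Cre;R26R-eYFP;Pik3caH1047R, so that Cre and the reporter were present in both and only the mutant carried the Cre-activated Pik3caH1047R transgene. Each genotype was 1 library made from 3 pooled embryos of a mixed C57BL/6J and Crl:CD1(ICR) background, from tissue above the liver, although the labels name the tissue as pharyngeal arch. Cre is driven by the Isl1 locus, which is itself active in sensory, sympathetic and motor neurons, so a sorted cell can be a neuron by its own Isl1 history. With 1 library per genotype no test between genotypes exists: every interval below is a 95% interval that covers counting error only, and the genotype cannot be told apart from the library, the pool of embryos or the dissection.

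Neurons of the cranial ganglia come from placodes and neural crest. The basic helix-loop-helix (bHLH) factors Neurog1 and Neurog2 start the neuronal programme in these precursors, and Neurod1, Neurod4 and Nhlh1 follow in young neurons. Pou4f1 (Brn3a) and Tlx3 are homeodomain factors of differentiating sensory neurons. Phox2a is needed for noradrenergic, visceral and some cranial motor neurons, and Gata3 acts in sympathetic neurons, in the inner ear and in several neurons of the brain.

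The 4 bHLH genes that were higher together in sensory-marked neurons of the mutant library (below) are shown by their promoters, because bHLH factors bind the E-box, CANNTG. The sequences are RefSeq sequences of GRCm38.p6, 250 bases before to 50 bases after the annotated start, written 5′ to 3′ on the gene's strand with each E-box in capitals. CANNTG reads the same on both strands, so 1 search covers both. These are Neurog1 (chr13:56252131-56252430, minus strand), Neurod1 (chr2:79456587-79456886, minus strand), the first of 2 annotated promoters of Neurod4 (chr10:130280205-130280504, minus strand) and Nhlh1 (chr1:172057547-172057846, minus strand).
Neurog1: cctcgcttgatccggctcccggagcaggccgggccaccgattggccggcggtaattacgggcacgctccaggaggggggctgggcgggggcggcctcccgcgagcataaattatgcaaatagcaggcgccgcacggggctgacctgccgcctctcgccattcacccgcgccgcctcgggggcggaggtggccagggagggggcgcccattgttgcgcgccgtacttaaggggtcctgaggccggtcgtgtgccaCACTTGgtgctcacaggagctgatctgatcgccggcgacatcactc
Neurod1: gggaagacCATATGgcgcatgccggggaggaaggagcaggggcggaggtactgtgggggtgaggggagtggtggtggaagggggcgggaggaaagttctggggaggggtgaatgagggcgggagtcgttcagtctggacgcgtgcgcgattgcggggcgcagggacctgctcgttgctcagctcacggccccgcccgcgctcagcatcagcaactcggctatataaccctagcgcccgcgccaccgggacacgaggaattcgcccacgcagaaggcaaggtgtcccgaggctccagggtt
Neurod4: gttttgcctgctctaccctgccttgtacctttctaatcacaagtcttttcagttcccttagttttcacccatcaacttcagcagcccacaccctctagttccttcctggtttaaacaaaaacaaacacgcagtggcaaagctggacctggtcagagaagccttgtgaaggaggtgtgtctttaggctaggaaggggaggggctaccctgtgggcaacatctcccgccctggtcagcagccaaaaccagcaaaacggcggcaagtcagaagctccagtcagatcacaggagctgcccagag
Nhlh1: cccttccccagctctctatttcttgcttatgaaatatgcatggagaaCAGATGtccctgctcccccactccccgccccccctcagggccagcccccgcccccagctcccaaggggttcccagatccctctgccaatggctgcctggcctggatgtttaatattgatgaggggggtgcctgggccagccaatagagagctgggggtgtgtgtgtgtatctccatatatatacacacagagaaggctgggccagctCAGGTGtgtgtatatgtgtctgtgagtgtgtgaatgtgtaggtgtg
The Neurog1 window held 1 E-box (CACTTG), the Neurod1 window 1 (CATATG) and the Nhlh1 window 2 (CAGATG and CAGGTG). The Neurod4 window shown held none, and its second annotated promoter, which overlaps the first, held 1 (CAGCTG). An E-box was present in 72.3% of the 32851 RefSeq promoter windows searched, with a mean of 1.39 per window. Those windows had the same length and left out 1 chromosome, which holds none of the members. The counts above do not set the 4 genes apart from them. Among the other 5 members, the windows of Pou4f1 held 2, those of Phox2a and Gata3 held 1 each, and those of Tlx3 and Neurog2 held none. A match is a description of the letters and not a bound site.

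The control library held 4505 called cells with 66935720 UMIs, and the mutant library 5357 with 73915525. After the filter there were 2783 control cells (median 20412 UMIs per cell) and 3489 mutant cells (median 16839). Of these, 152 control cells (5.46%, 4.65 to 6.37) and 421 mutant cells (12.1%, 11.0 to 13.2) passed the neuron gate, with median depths of 20269 and 14778 UMIs. Just inside the gate, 23 control and 64 mutant neurons had 1 of the gate genes at a single UMI, and just outside it 103 control and 130 mutant cells had exactly 2 of the 3 genes. The gated cells carried neuronal genes that the gate did not use: Stmn2 was detected in 98.7% of control and 94.5% of mutant neurons against 12.4% and 17.1% of other cells, and Snap25 in 88.8% and 78.9% against 4.07% and 5.12%. In a clustering that left the 9 genes out, 94.7% of control and 94.3% of mutant neurons fell into neuron-like clusters. The libraries shared 12 cell barcodes after the filter, none of them a neuron. The share of neurons with Xist RNA and no RNA of the Y chromosome genes was 96.7% in the control library and 52.3% in the mutant library, so the pools differed in the sex make-up of their neurons. What part of each difference below goes with that was not tested. Values in female-like cells alone are given, where they moved, for members over all neurons and for neuron and type shares. None are given for members within a type of neuron (typed below), such as the sensory-marked neurons.

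**Figure D1:**
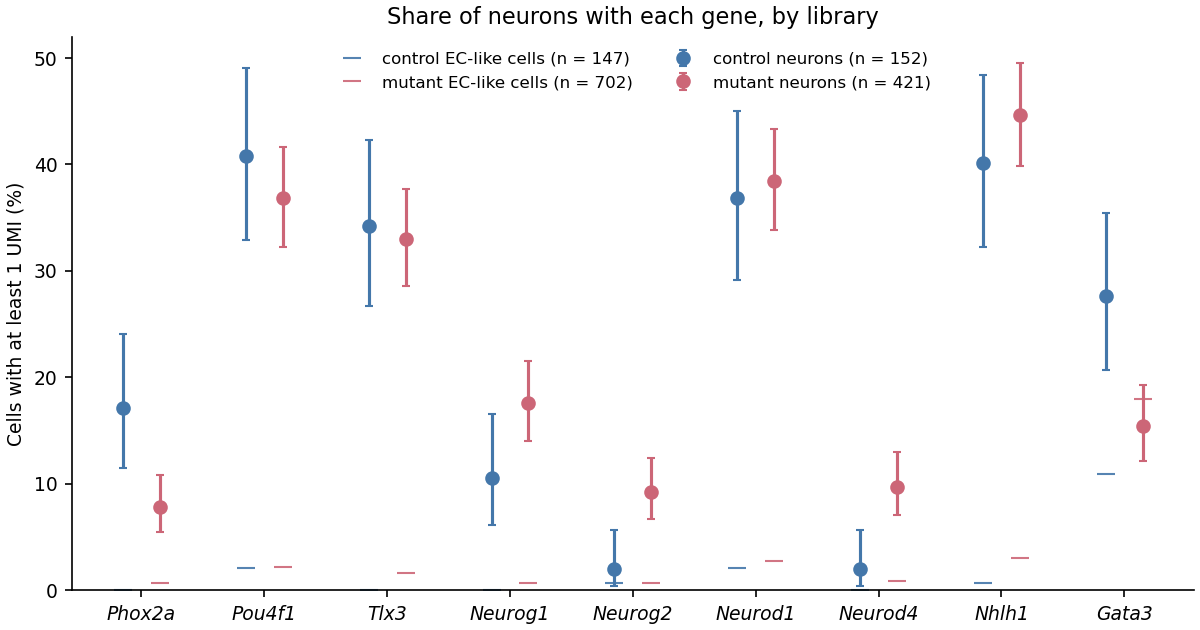
The share of neurons (percent, vertical axis) with at least 1 UMI of each of the 9 genes (horizontal axis) in the control library (152 neurons) and the mutant library (421 neurons), with 95% intervals for counting error. Dashes mark the share of endothelial cell-like cells (147 control and 702 mutant cells) with the gene. Pou4f1, Neurod1 and Nhlh1 were in 36.8% to 44.7% of neurons in both libraries, Phox2a and Gata3 were in a smaller share of mutant neurons, and Neurog2 and Neurod4 were each in 1.97% of control neurons and over 9% of mutant neurons.

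All 9 genes were detected in neurons of both libraries, in 26 or more control neurons for 6 of them and in 16 or fewer for Neurog1, Neurog2 and Neurod4. Between 71.0% and 92.3% of the UMIs of Phox2a, Pou4f1, Tlx3, Neurog1, Neurod1 and Nhlh1 in each library came from the gated neurons, which were at most 12.1% of cells. Neurog2 and Neurod4 gave 31.0% and 40.0% of their few control UMIs in neurons, and 82.5% and 78.0% in the mutant library. Gata3 was the exception, with 35.9% of its control and 33.0% of its mutant UMIs in neurons. A low share of cells with a UMI can come from RNA free in the droplets, and endothelial cell (EC)-like cells, which should lack these factors, had a UMI of the 8 genes other than Gata3 in 0% to 2.04% of 147 control cells and 0.712% to 2.99% of 702 mutant cells, at median depths of 20203 and 17038 UMIs. The shares of Neurog2 and Neurod4 in control neurons were 3 of 152 each (1.97%, 0.409 to 5.66), against 1 and 0 of 147 control EC-like cells, and at these counts expression cannot be told apart from background.

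The plot of shares by gene shows which members are common. Nhlh1 was in 61 of 152 control neurons (40.1%) and 188 of 421 mutant neurons (44.7%), Neurod1 in 56 (36.8%) and 162 (38.5%), Pou4f1 in 62 (40.8%) and 155 (36.8%), and Tlx3 in 52 (34.2%) and 139 (33.0%). The intervals of these 4 genes overlap in the control library, and in the mutant library those of neighbours in this order overlap, while Nhlh1 (39.8 to 49.5) lies above Tlx3 (28.5 to 37.7). Shares of different genes also depend on how well each RNA is captured. Gata3 followed with 42 (27.6%) and 65 (15.4%), then Phox2a with 26 (17.1%) and 33 (7.84%), and Neurog1 with 16 (10.5%) and 74 (17.6%). At 5000 UMIs per cell, a random thinning to equal depth that dropped 5 control and 8 mutant neurons, Nhlh1 stood at 23.8% of control and 33.9% of mutant neurons, Pou4f1 at 24.5% and 24.9%, and Tlx3 at 21.8% and 24.5%. Thinned, Gata3 was in 14.3% and 9.20%, Phox2a in 13.6% and 5.08%, Neurog1 in 4.08% and 9.44%, and Neurog2 in 2.04% and 6.05%. The latter 4 kept their direction at equal depth, while the small differences of Pou4f1 and Tlx3 changed theirs. Of these 4 only Phox2a had thinned intervals that did not overlap (8.51 to 20.2 in control and 3.17 to 7.67 in mutant neurons). Those of Gata3 (9.07 to 21.0 and 6.59 to 12.4), Neurog1 (1.51 to 8.67 and 6.80 to 12.7) and Neurog2 (0.423 to 5.85 and 3.96 to 8.81) overlapped.

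Phox2a was lower in the mutant library. Its 486 control UMIs were 134 CPM (counts per 1000000 neuron UMIs) and its 262 mutant UMIs were 34.3 CPM, a log2 ratio of mutant over control of -1.97 (-2.19 to -1.75). The genes lie at chr7:101818313-101822726 for Phox2a, chr14:104461676-104467999 for Pou4f1 and chr11:33200752-33203589 for Tlx3 (GRCm38, GENCODE). Control neurons with Phox2a held a median of 17 UMIs of it (1 to 49), and mutant neurons a median of 4 (1 to 64), so a smaller share of neurons held it and those that did held fewer UMIs at the median. In female-like neurons alone the log2 ratio of Phox2a was -3.35. Gata3 (chr2:9857078-9890034) had 211 UMIs (58.1 CPM) in control and 298 (39.0 CPM) in mutant neurons, a log2 ratio of -0.58 (-0.84 to -0.31), and 1.92 (1.03 to 2.96) in GABAergic-marked neurons, where it was higher.

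Neurog2 and Neurod4 differed most in the other direction. Neurog2 (chr3:127633135-127635631) had 9 UMIs in 3 control neurons, 7 of them in 1 cell, and 179 UMIs in 39 mutant neurons, which is 2.48 and 23.4 CPM and a log2 ratio of 3.24 (2.28 to 4.39). Neurod4 (chr10:130268152-130280240) had 4 UMIs in 3 control neurons and 110 in 41 mutant neurons, 1.10 and 14.4 CPM, with a log2 ratio of 3.71 (2.31 to 5.61). At equal depth Neurod4 was in 0 of 147 control neurons, for which the interval reaches 2.48%, and in 3.39% of mutant neurons. Neurog1 (chr13:56250478-56252163) had 83 and 235 UMIs, a log2 ratio of 0.43 (0.06 to 0.81). A single control neuron held 46 of the 83 UMIs (55.4%), and without the top neuron of each library the log2 ratio of Neurog1 was 1.46.

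The other members differed by less than 1.5-fold between the libraries. Pou4f1 went from 92.8 to 127 CPM (log2 ratio 0.45, 0.27 to 0.64), Tlx3 from 110 to 159 CPM (0.54, 0.38 to 0.71), Neurod1 (chr2:79452521-79456751) from 211 to 248 CPM (0.24, 0.11 to 0.36) and Nhlh1 (chr1:172052292-172057573) from 164 to 189 CPM (0.20, 0.07 to 0.34). Counting 1.5-fold as a difference, 2 of the 9 members were higher in the mutant library, against 9.43% of all 14256 genes with at least 20 UMIs in neurons, and 1 was lower, against 16.7%. The median log2 ratio of the members was 0.43 and that of all genes tested was -0.06. In female-like neurons alone Neurod1 was at -0.093, the opposite direction, and Nhlh1 at 0.049. The plot of log2 ratios shows the 9 values beside each other.

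**Figure D2:**
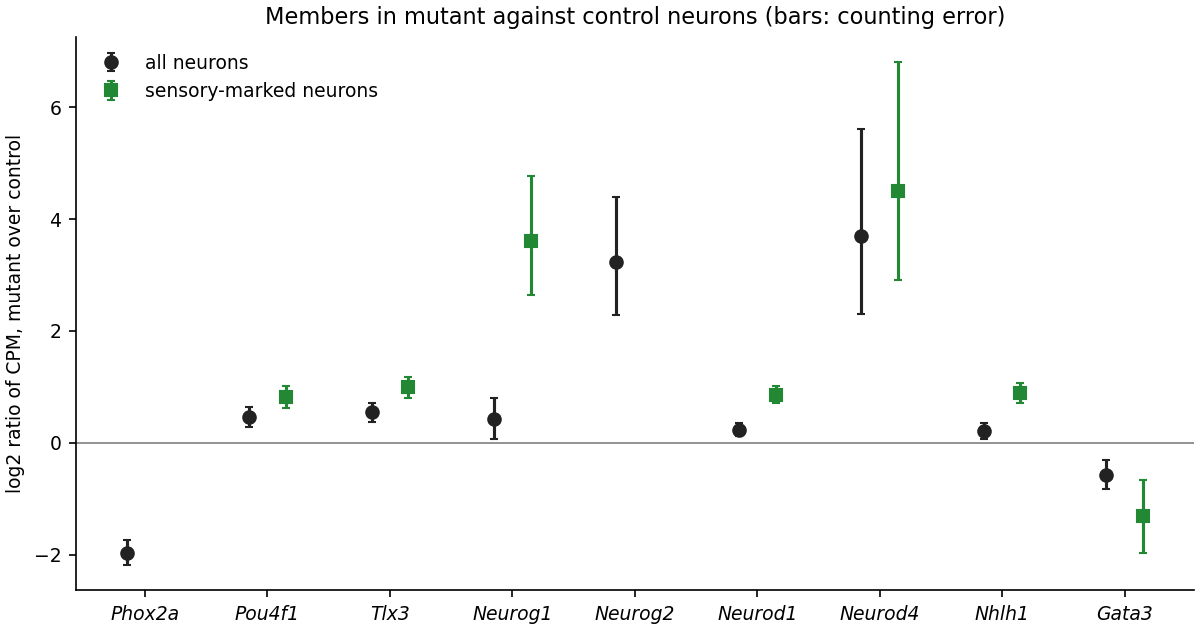
The log2 ratio of CPM in mutant over control neurons (vertical axis) for each member (horizontal axis). Circles are all neurons, and squares are sensory-marked neurons (typed below), drawn for the 7 members with at least 20 UMIs there. Bars give the 95% interval of counting error in 1 library per genotype. Over all neurons Phox2a lay lowest at -1.97, Neurog2 and Neurod4 lay highest at 3.24 and 3.71 with the widest intervals, and the other 6 lay between -0.58 and 0.54. Over sensory-marked neurons the values ran from -1.31 (Gata3) to 4.51 (Neurod4), with Neurog1 at 3.60.

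Neurons were typed by 4 lists of 8 marker genes that hold none of the 9 members. A neuron took the type of the list with the most markers detected, with at least 2 needed, was mixed on a tie and untyped otherwise. The sensory list (such as P2rx3, an ATP-gated channel, and Avil, an actin regulator of sensory neurons) marked 56 control neurons (36.8%, 29.2 to 45.0) and 89 mutant neurons (21.1%, 17.3 to 25.4). The autonomic list (such as Th and Dbh, enzymes of catecholamine synthesis, and Hand2) marked 29 (19.1%, 13.2 to 26.2) and 21 (4.99%, 3.11 to 7.52). The motor list (such as Chat and Slc18a3, which make and package acetylcholine) marked 1 control neuron (0.658%) and 16 mutant neurons (3.80%, 2.19 to 6.10), and the GABAergic list (such as Gad1 and Gad2, which make GABA) marked 33 (21.7%) and 126 (29.9%). A further 30 control (19.7%) and 163 mutant neurons (38.7%) were untyped, and 3 and 6 were mixed. The dissection and sort of each pool can also set these shares and cannot be told apart from the genotype. For these shares at 5000 UMIs the neuron gate was applied again to the thinned counts. That left fewer neurons than the thinned set used for the members. There the sensory share of mutant neurons was 11.9% and the autonomic share 2.97%, and that of control neurons 28.0374% and 13.1%. GABAergic neurons with Dlx genes are a population of the brain, which the tissue label does not name. Within the sensory-marked group 13 control and 26 mutant neurons had the minimum number of markers.

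Pou4f1, a homeodomain factor of sensory neurons, was the member found in the largest share of sensory-marked neurons in both libraries at full depth, while at 5000 UMIs Neurod1 (71.9%) was in more of the mutant ones than Pou4f1 (67.4%). Pou4f1 was in 51 of 56 control sensory-marked neurons (91.1%, 80.4 to 97.0) and 81 of 89 mutant ones (91.0%, 83.1 to 96.0). Tlx3 was in 37 (66.1%) and 72 (80.9%). In autonomic-marked neurons Pou4f1 was in 0 of 29 control cells, where the interval reaches 11.9%, and in 6 of 21 mutant cells (28.6%, 11.3 to 52.2). Tlx3 was in 12 control (41.4%) and 14 mutant (66.7%) autonomic-marked neurons, so it was not specific to the sensory type. In GABAergic-marked neurons Pou4f1 was in 1 of 33 and 7 of 126 cells, and Tlx3 in 0 of 33 and 6 of 126.

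**Figure D3:**
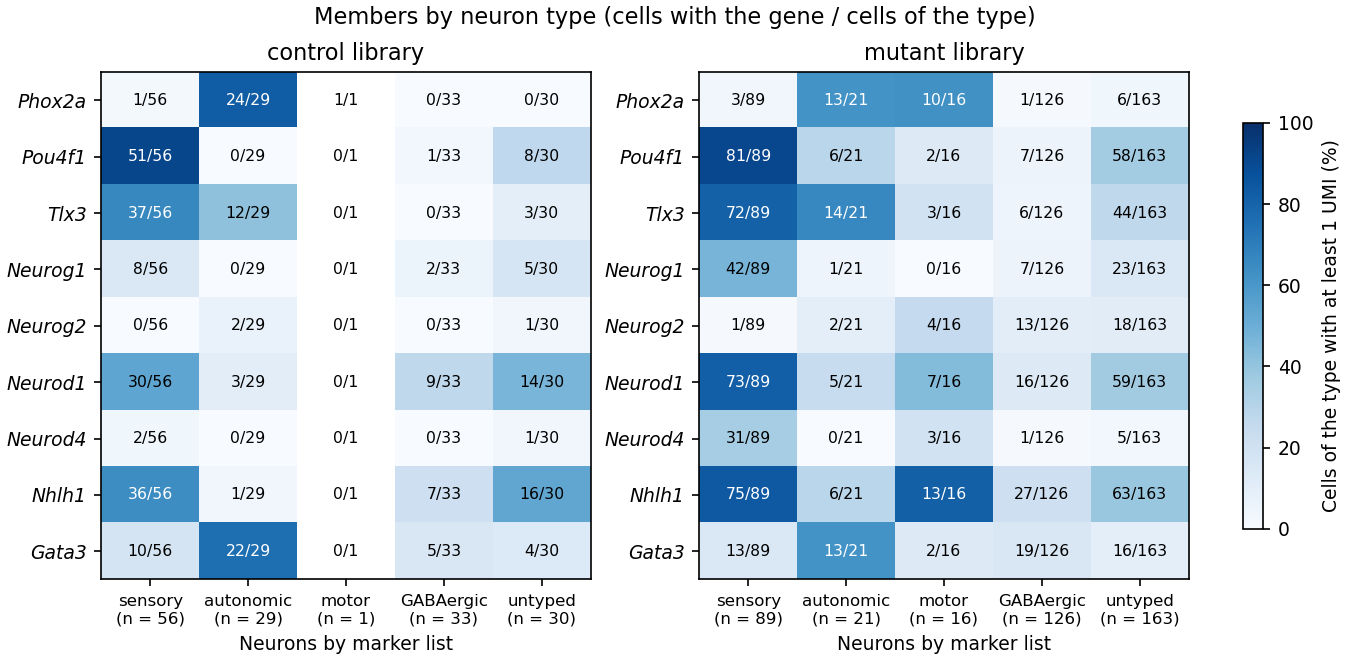
The share of neurons of each marker-list type (columns) with at least 1 UMI of each member (rows), with cells with the gene over cells of the type written in each square, for the control and mutant libraries. Pou4f1 was in 91.1% and 91.0% of sensory-marked neurons, Phox2a in 82.8% and 61.9% of autonomic-marked neurons, and Neurog1 and Neurod4 were in a larger share of the mutant library's sensory-marked neurons.

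Sensory-marked neurons of the mutant library held more RNA of the early bHLH genes than those of the control library. Neurog1 was in 8 of 56 control cells (14.3%, 6.38 to 26.2) and 42 of 89 mutant cells (47.2%, 36.5 to 58.1), with 9 and 138 UMIs and a log2 ratio of 3.60 (2.64 to 4.76). Neurod4 was in 2 (3.57%) and 31 (34.8%, 25.0 to 45.7), with 3 and 86 UMIs and a log2 ratio of 4.51 (2.91 to 6.81). After thinning to 5000 UMIs both genes were in none of the control sensory-marked neurons, and Neurog1 was in 24.7% and Neurod4 in 11.2% of the mutant ones. Neurod1 was in 30 (53.6%) and 73 (82.0%) cells at 292 and 530 CPM (log2 ratio 0.86, 0.71 to 1.01), and Nhlh1 in 36 (64.3%) and 75 (84.3%) cells at 211 and 393 CPM (0.89, 0.72 to 1.07). At equal depth the share with Neurod1 was 33.3% and 71.9%, and with Nhlh1 37.0% and 67.4%. The mutant cells were the shallower ones, with a median of 23281 UMIs against 30090. Pou4f1 (172 and 303 CPM, log2 ratio 0.82, 0.62 to 1.02) and Tlx3 (185 and 366 CPM, 0.99, 0.81 to 1.18) were also higher in the mutant cells, while Gata3 was lower (34.6 and 13.9 CPM, -1.31, -1.97 to -0.68). Neurog2 was in 0 and 1 of these neurons.

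Of the 7 members with at least 20 UMIs in sensory-marked neurons, 6 were more than 1.5-fold higher in the mutant library, where 11.3% of all 11583 genes tested were, and 1 (Gata3) was lower, where 21.2% were. The median was 0.89 over the members and -0.10 over all genes tested. Sensory-marked cells were chosen by RNA that itself differed between the libraries: of the 8 markers of that list 5 were lower and 1 higher in the mutant cells by this measure, led by Runx1 (-2.78), a factor of nociceptor maturation, and Runx3 (3.86), a factor of proprioceptive neurons. Runx3 had 3 and 55 UMIs in these cells. Over all mutant neurons it was in 12 cells, and 1 of them held 29 of its 67 UMIs.

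Other genes of young neurons and of precursors differed in the same cells, where 11.3% of all genes tested were more than 1.5-fold higher and 21.2% lower. Of 7 neuronal progenitor genes tested in sensory-marked neurons 5 were higher in the mutant library and 1 lower (Dll1, -1.03), with a median log2 ratio of 0.99 and the highest value in Dll3 (2.39), which encodes a Notch ligand of newly forming neurons. Of 6 cell-cycle genes 4 were higher and none lower by summed UMIs, with a median of 1.32 and the highest value in Ccnb1 (2.61). Top2a was in 15 of 56 control (26.8%) and 20 of 89 mutant (22.5%) sensory-marked neurons. A single mutant cell held 36 of its 124 UMIs. Mki67 was in 17.9% (8.91 to 30.4) and 24.7% (16.2 to 35.0), intervals that overlap. At equal depth the shares were 9.26% and 12.4% for Top2a and 5.56% and 11.2% for Mki67. Whether a larger share of the mutant cells was dividing was not tested. Of 8 genes of mature neurons 4 were lower, led by Prph (-2.81), the intermediate filament of peripheral neurons, and 1 was higher. Over all neurons, where 9.43% of all genes tested were higher and 16.7% lower, the cell-cycle genes had a median of -0.01 with none of 6 past 1.5-fold. There 3 of 8 progenitor genes were higher and 0 lower (median 0.43). Of the 8 genes of mature neurons 3 were lower and 0 higher (median -0.30).

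Autonomic-marked neurons held mainly Phox2a, Gata3 and Tlx3 among the members. Phox2a was in 24 of 29 control (82.8%, 64.2 to 94.2) and 13 of 21 mutant (61.9%, 38.4 to 81.9) autonomic-marked neurons, at 759 and 382 CPM, a log2 ratio of -0.99 (-1.24 to -0.75). Of these neurons 2 control and 6 mutant cells had the minimum number of markers, and 3 and 7 led by 1 marker, and the part of such cells in the lower level was not tested. Gata3 was in 22 (75.9%, 56.5 to 89.7) and 13 (61.9%, 38.4 to 81.9) of them at 196 and 154 CPM, a log2 ratio of -0.35, for which counting error alone spans -0.78 to 0.06. Tlx3 was at 86.4 and 123 CPM (0.51, -0.03 to 1.05). Neurod1 had 3 UMIs in control and 36 in mutant autonomic-marked neurons, and Nhlh1 had 1 and 24. Nhlh1 was in 1 of 29 and 6 of 21 of these cells.

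The 16 motor-marked neurons of the mutant library had another set. Nhlh1 was in 13 of them (81.3%, 54.4 to 96.0) at 185 CPM, Phox2a in 10 (62.5%, 35.4 to 84.8) at 107 CPM, Neurod1 in 7, Neurog2 in 4, Neurod4 and Tlx3 in 3 each, Gata3 and Pou4f1 in 2 each and Neurog1 in none. Of these cells 12 had Isl1, which was in 52.5% of all mutant neurons, and 8 had Chat, a gene of the motor list. The control library had 1 motor-marked neuron, with 2 UMIs of Phox2a and none of the other 8 members, so no comparison between libraries was made for this type. 6 of the 16 mutant cells had the minimum of 2 markers.

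Many neurons without any member were GABAergic-marked. Of the 26 control neurons with none of the 9 genes 17 were GABAergic-marked, and of the 130 such mutant neurons 72 were. Neurog2 was in 0 of 33 control and 13 of 126 mutant GABAergic-marked neurons (31 UMIs), a log2 ratio of 1.76 against a floor of 3 UMIs in the control library, with a lower counting limit of 1.38. Gata3 was in 5 and 19 of these cells, with 11 and 127 UMIs (17.7 and 67.0 CPM). Neurod1 was in 9 and 16 of them at 157.5 and 24.8 CPM, and Nhlh1 in 7 and 27 at 104.5 and 58.6 CPM. Neurog1 had 52 and 21 UMIs, of which 46 were in 1 control cell, so that its lower level in the mutant library rests on that cell. Untyped neurons also held members: Pou4f1 was in 8 of 30 control and 58 of 163 mutant untyped neurons, Nhlh1 in 16 and 63, Neurod1 in 14 and 59, and Neurog2 in 1 and 18. There the log2 ratio was -1.11 (-1.40 to -0.81) for Nhlh1 and -0.31 (-0.59 to -0.02) for Neurod1. It was 1.32 (0.62 to 2.10) for Pou4f1, 3.02 (1.96 to 4.35) for Tlx3 and 1.94 (0.85 to 3.28) for Neurog2, the latter 2 from 7 control UMIs each.

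Co-detection of members in single neurons was set beside the marker-list types. The plot of pairs gives all 36 pairs. Of Phox2a neurons 20 of 26 in the control library (76.9%, 56.4 to 91.0) and 14 of 33 in the mutant library (42.4%, 25.5 to 60.8) also held Gata3. Thinned to 5000 UMIs this was 11 of 20 and 7 of 21. Neurons with both genes carried noradrenergic genes: of the 20 control and 14 mutant cells, 19 and 10 had Hand2, 17 and 9 had Dbh, and 12 and 7 had Th. By the marker lists 20 and 11 of them were autonomic-marked, a label that itself uses Hand2, Dbh and Th.

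Phox2a without Gata3 had another company in the mutant library. Of the 6 control cells 4 were autonomic-marked and 1 motor-marked, while of the 19 mutant cells 2 were autonomic-marked and 9 motor-marked. Chat was in 0 and 8 of them, and Slc18a3, the vesicular acetylcholine transporter, in 1 and 8. Of the 10 mutant neurons with Phox2a but neither Tlx3 nor Gata3, 8 were motor-marked and 7 each had Lhx4 and Tbx20, factors of developing motor neurons, against 1 motor-marked among the 4 control neurons of this pattern. Chat, Slc18a3, Lhx4 and Tbx20 are all in the motor list, so their counts and the motor label are not separate observations. P2rx3 was in 2 of the 6 control and 12 of the 19 mutant Phox2a neurons without Gata3, and in 39.5% of all control and 25.7% of all mutant neurons.

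Phox2a and Nhlh1 were never together in the control library (0 of 26 Phox2a neurons, where the interval reaches 13.2%) and were together in 19 of 33 mutant Phox2a neurons (57.6%, 39.2 to 74.5). After thinning the counts were 0 of 20 and 6 of 21. Among neurons without Phox2a, Nhlh1 was in 48.4% of control and 43.6% of mutant cells, the latter inside the interval of mutant Phox2a neurons. Phox2a and Neurod1 were together in 2 control and 14 mutant neurons, Phox2a and Pou4f1 in 1 and 8, and Phox2a and Neurod4 in 0 and 6. In mutant Phox2a neurons these are 42.4%, 24.2% and 18.2%, against 38.1%, 37.9% and 9.02% of mutant neurons without Phox2a. In control Phox2a neurons they are 7.69%, 3.85% and 0%, against 42.9%, 48.4% and 2.38%. Thinned, Neurod1 was in 1 of 20 control and 6 of 21 mutant Phox2a neurons, Pou4f1 in 0 and 2, and Neurod4 in 0 and 4. Phox2a and Tlx3 were together in 13 of 26 control (50%) and 23 of 33 mutant Phox2a neurons (69.7%, 51.3 to 84.4), and after thinning in 5 of 20 and 9 of 21. All 14 mutant neurons with Phox2a and Gata3 also had Tlx3, against 11 of the 20 control ones.

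Pou4f1 with Tlx3 was the pair of homeodomain factors of sensory neurons. Pou4f1 with Nhlh1 was in more neurons, 41 control and 122 mutant. Both Pou4f1 and Tlx3 were in 37 of 62 control Pou4f1 neurons (59.7%) and 102 of 155 mutant ones (65.8%, 57.8 to 73.2), which is 71.2% and 73.4% of Tlx3 neurons. At equal depth both were in 13 of 36 control and 58 of 103 mutant Pou4f1 neurons, a smaller share in the control library. Of Tlx3 neurons these were 13 of 32 and 58 of 101. At full depth 36 of the 37 control neurons with both were sensory-marked, and 69 of the 102 mutant ones, with 29 untyped. Prrxl1, a homeodomain factor of nociceptive circuits, was in 36 and 79 of them, and Prdm12, a nociceptor factor, in 33 and 55. Runx1 was in 23 of the 37 and 11 of the 102, Prph in 26 and 12, and Dll3 in 6 and 61. Among all control and all mutant neurons Prrxl1 was in 34.9% and 25.9% and Prdm12 in 26.3% and 20.2%. Runx1 was in 28.3% and 8.08% of them and Dll3 in 15.1% and 46.8%. Pou4f1 neurons without Tlx3, 25 and 53 cells, had Prrxl1 in 2 and 6 cells and P2rx3 in 20 and 23, and 15 and 12 of them were sensory-marked. Prrxl1, Prdm12, Runx1 and P2rx3 are in the sensory list, so their counts and the sensory label are not separate observations.

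**Figure D4:**
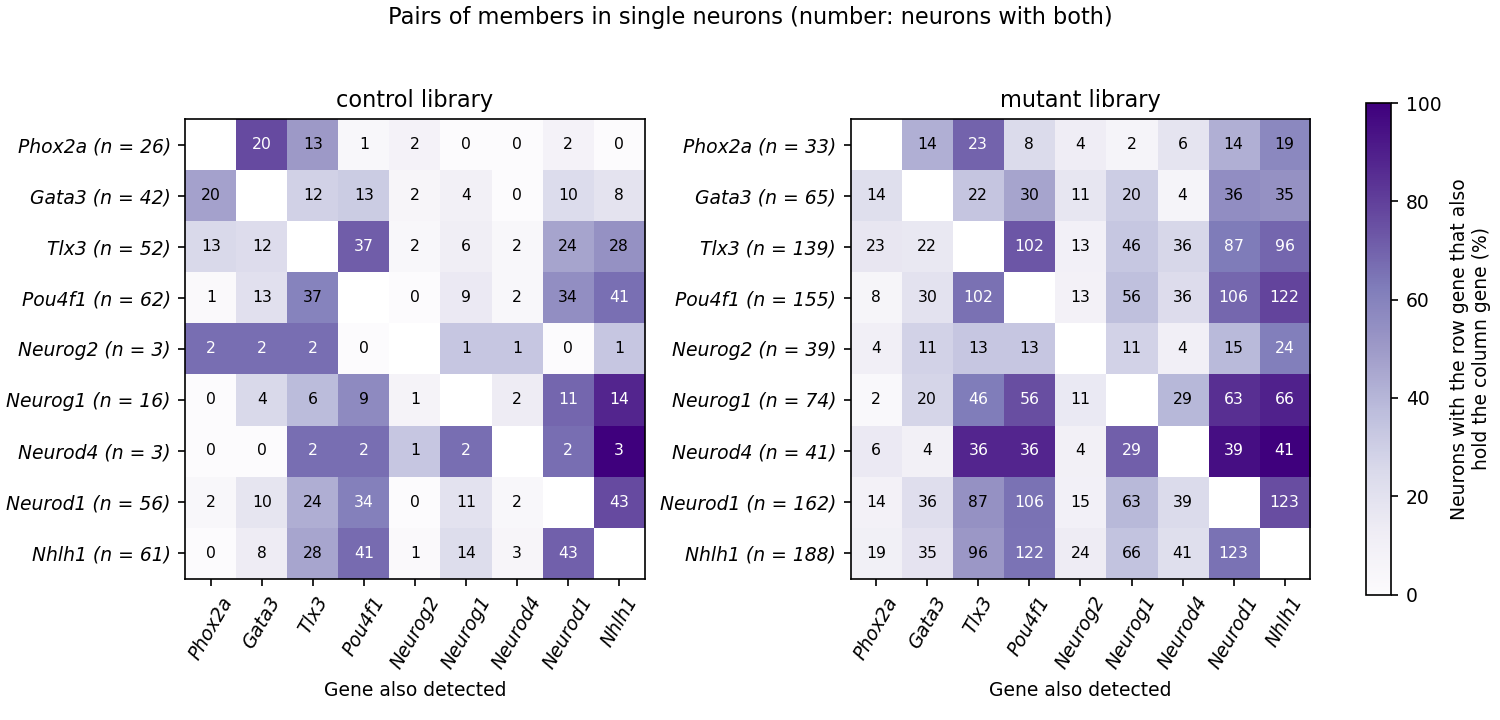
For each row gene, the share of neurons with it that also held the column gene (colour, percent), with the number of neurons holding both written in each square, for the control and the mutant library. Phox2a with Gata3 was the pair of 20 control and 14 mutant neurons, Pou4f1 with Tlx3 that of 37 and 102, and Phox2a with Nhlh1 was in 0 control and 19 mutant neurons.

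The bHLH genes were often found in the same neurons. Of Neurog1 neurons 14 of 16 in the control library (87.5%) and 66 of 74 in the mutant library (89.2%) held Nhlh1, and 11 (68.8%, 41.3 to 89.0) and 63 (85.1%, 75.0 to 92.3) held Neurod1. Neurod1 neurons held Nhlh1 in 43 of 56 (76.8%) and 123 of 162 (75.9%) cells. Every Neurod4 neuron held Nhlh1, 3 of 3 and 41 of 41 (the interval of the latter is 91.4 to 100), while Nhlh1 was in 38.9% of control and 38.7% of mutant neurons without Neurod4. Neurod4 neurons of the mutant library also held Neurod1 in 39 of 41 cells (95.1%), Pou4f1 in 36 and Tlx3 in 36, and 31 of the 41 were sensory-marked. A pair of genes is detected together more often in deeper cells, and the counts at equal depth kept 19 of 33 control and 87 of 121 mutant Neurod1 neurons with Nhlh1.

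Neurog1 and Neurog2 were together in 1 of 16 control and 11 of 74 mutant Neurog1 neurons (14.9%), or 28.2% of the 39 mutant Neurog2 neurons (15.0014 to 44.9), against 16.5% of mutant neurons without Neurog2. Of the mutant Neurog1 neurons 42 were sensory-marked, 71 had Insm1, a factor of differentiating neuroendocrine and neuronal cells, and 71 had Hes6, and 27 had Mki67 or Top2a, genes of dividing cells. The same genes were in 13, 16 and 13 of the 16 control Neurog1 neurons. Insm1 was in 60.5% of all control and 67.5% of all mutant neurons, and Hes6 in 77.0% and 78.1%. Of the 39 mutant Neurog2 neurons 13 were GABAergic-marked and 18 untyped, 11 had Sox2, 10 had Isl1 and 30 had Dll3. Among all mutant neurons Isl1 was in 52.5% and Dll3 in 46.8%. Neurog2 neurons held Neurod1 in 15 of 39 cells (38.5%, 23.4 to 55.4) and Nhlh1 in 24 (61.5%). The 28 of them without Neurog1 included no sensory-marked neuron.

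Gata3 was found in neurons of several marker-list types. Of all 42 control and 65 mutant Gata3 neurons 22 and 13 were autonomic-marked. Of the 22 control and 51 mutant neurons with Gata3 and no Phox2a, 10 and 13 were sensory-marked and 5 and 19 GABAergic-marked, and 18 and 29 had Eya1, a placode and inner ear gene. Eya1 was in 37.5% of all control and 23.5% of all mutant neurons. Gata3 was also in other classes of cells, here named from markers as X-like. EC-like cells had a UMI in 10.9% of control and 17.9% of mutant cells, the latter beside 15.4% of mutant neurons, and branchial muscle-like cells in 3.83% and 7.60%. At 5000 UMIs Gata3 was in 14.3% of control and 9.20% of mutant neurons against 4.86% and 5.67% of EC-like cells, and its level was 58.1 and 39.0 CPM in neurons against 6.45 and 14.3 CPM in EC-like cells. Epithelium-like cells had 48.9 CPM of Gata3 in the control library (42 of 210 cells, 20%) and 15.0 CPM in the mutant library (46 of 301 cells, 15.3%), and mesenchyme-like cells 4.05 and 17.5 CPM.

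A larger share of mutant than of control neurons held none of the members, and a larger share held 5 or more. Neurons with none of the 9 were 26 in the control library (17.1%) and 130 in the mutant library (30.9%), and their median depths of 14592.5 and 12056 UMIs were below those of all neurons. Between 1 and 4 were detected in 35, 29, 28 and 27 control neurons and in 75, 53, 48 and 44 mutant neurons. Exactly 5 were detected in 6 and 36 neurons, 6 in 1 and 30, and 7 in 0 and 5, and no neuron held 8 or 9.

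The genes whose level followed each member across single neurons in both libraries were found by the Pearson correlation of log-scaled counts over 152 control and 421 mutant neurons, taking the lower of both values over 10741 genes. The cells of a library share its depth and free RNA, so these are descriptions. For Phox2a the closest were Hand2os1 (0.69), Cartpt (0.62) and Ccnd1 (0.60). For Pou4f1 they were Thsd7b (0.58), D130009I18Rik (0.57) and Ppp1r1c (0.53), and for Tlx3 they were Prrxl1 (0.62), Ppp1r1c (0.58) and Pirt (0.46). For Neurod1 they were Ppp1r14a (0.83), Cdhr1 (0.75) and Mfap4 (0.73), and for Nhlh1 they were Neurod1 (0.65), Ppp1r14a (0.61) and Cdhr1 (0.60). Gata3 went with Gata2 (0.48), Eya1 (0.38) and Ccnd1 (0.36). Neurog1, Neurog2 and Neurod4 were in fewer than 20 control neurons and were not ranked.

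A list of 48 other regulators of neuronal identity sets the members in context. Of the 46 with at least 20 UMIs 13 were more than 1.5-fold higher and 11 lower in mutant neurons, where 9.43% and 16.7% of all genes tested were, with a median log2 ratio of 0.19. Hand2 (-1.78), with which Phox2a is found in sympathetic neurons, and Gata2 (-0.62), the paralog of Gata3, were lower. Nhlh2, the paralog of Nhlh1, was higher (489 and 1818 UMIs, 0.82), as was Dll3 (48 and 507 UMIs, 2.33), while Neurod6 was lower (-2.73). Isl1, whose promoter drives Cre, was at -0.07. Lhx9 lay highest (1 and 268 UMIs, 6.99) and Hmx1, a factor of cranial sensory ganglia, lowest (125 and 26 UMIs, -3.34). Hmx1 was in 32 control and 2 mutant neurons, and 25 of its 26 mutant UMIs were in 1 cell. Lhx4 (1 and 63 UMIs, 4.90), Tbx20 (1.87) and Runx3 (3 and 67 UMIs, 3.41) were higher and Runx1 (262 and 94 UMIs, -2.55) was lower. Of the 67 mutant Runx3 UMIs 29 were in 1 cell.

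The marker lists are read over all neurons against the same 9.43% higher and 16.7% lower of all genes tested. Of 8 autonomic markers 6 were lower and none higher (median -1.19, with Th lowest at -1.86), of 8 sensory markers 6 were lower and 1 higher (median -1.22), of 7 motor markers 6 were higher and 1 lower (median 2.25), and of 8 GABAergic markers 6 were higher and none lower (median 1.12, with Sp9 highest at 5.76). The smaller share of Phox2a and Gata3 neurons in the mutant library lies beside a smaller share of autonomic-marked neurons. Without the GABAergic-marked neurons, a choice made after the data were seen, Phox2a was in 21.8% of control and 10.8% of mutant neurons and Pou4f1 in 51.3% of control and 50.2% of mutant neurons.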

How the data were processed

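The authors sequenced 5′ single-cell libraries and aligned them to mm10 (GRCm38) with Cell Ranger 7.1.0, and they deposited raw UMI counts per gene and called cell. The annotation release and the handling of intronic reads are not given in the sources used here. The filter kept a cell if its genes numbered above 2000 and below 9000 and its mitochondrial UMIs were under 10%. UMIs were summed over neurons of a library and divided by their total (CPM). Intervals are Clopper-Pearson for shares, exact Poisson for CPM and conditional exact binomial for ratios. A gene at 0 was set to a floor of 3 UMIs. Depth was equalised by thinning cells to 5000 UMIs, leaving out shallower cells. Thinned values of members and pairs used neurons gated at full depth, while neuron and type shares at 5000 UMIs applied the gate again. Classes came from anchor-based integration in Seurat 5.3.0 (R 4.3.3; 2000 variable genes without 77 genes of the lists, 30 components, 20 neighbours, resolution 0.3), and names such as EC-like are rebuilt from markers. Scrublet (scanpy 1.11.5), median-ratio and TMM (edgeR 4.0.16) scaling served as alternatives, and doublets were otherwise kept. Other work used Python 3.11.15. The calculations were tested on simulated data. Gene positions are those of GENCODE on GRCm38. Some list genes are not reported here. The members and the lists were chosen with earlier results of these data known. All 9 members were named; of the other regulators the highest, the lowest and those with a role beside a member were named.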

Additional observations from a re-analysis of the deposited data

Results flagged for a closer look

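For 4 members the difference between the libraries had opposite directions in different marker-list types of neurons, each with a counting interval that leaves out 0. In every case the difference between the types was not tested, since there was 1 library per genotype. Neurog1 had a log2 ratio of mutant over control of 3.60 in sensory-marked neurons and -2.92 in GABAergic-marked neurons, where 46 of the 52 control UMIs were in 1 cell. Without the top cell of each library the GABAergic value was -0.58, with an interval of -2.07 to 1.10. Neurod1 had 0.86 in sensory-marked, 3.87 in autonomic-marked (3 and 36 UMIs, interval 2.21 to 6.22) and -2.67 in GABAergic-marked neurons, and -2.30 in the latter without the top cells. Nhlh1 had 0.89 in sensory-marked, 4.87 in autonomic-marked (1 and 24 UMIs, interval 2.26 to 10.2) and -0.84 in GABAergic-marked neurons, and without the top cells the GABAergic value was -0.02 (-0.63 to 0.64). In untyped neurons Nhlh1 was at -1.11, and at -0.91 (-1.23 to -0.57) without the top cells. Gata3 had 1.92 in GABAergic-marked neurons and -1.31 in sensory-marked neurons, and without the top cells 2.87 and -1.14.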

How the results depend on the processing

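No paired analysis was possible because each genotype was 1 library. The settings marked as added were chosen after the data were seen, and the cause of a moved value was not tested. Pou4f1, Tlx3 and Neurod4 stayed within their counting intervals under all settings. In female-like neurons alone the log2 ratio was -1.29 for Gata3, -0.093 for Neurod1 (the only reversed direction), 0.049 for Nhlh1 and -3.35 for Phox2a. With at least 1000 genes and no upper limit it was -0.31 for Gata3, 0.46 for Neurod1 and 0.49 for Nhlh1. Without Scrublet's highest-scoring cells it was 0.38 for Neurod1 and 0.42 for Nhlh1. With 2 UMIs of each gate gene it was 0.058 for Neurod1 and 6.21 for Neurog2, and in neuron-like clusters it was 0.44 for Neurod1. Without GABAergic-marked neurons (added) it was -1.16 for Gata3, 0.54 for Neurod1, 1.85 for Neurog1 and 0.395 for Nhlh1. Without the neuron with the most UMIs of the gene in each library (added) it was 0.41 for Neurod1, 1.46 for Neurog1, 5.14 for Neurog2 and -2.21 for Phox2a.

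The share of cells that were neurons was 4.64% in control and 10.2% in mutant cells with 2 UMIs of each gate gene, 6.93% and 13.3% by neuron-like clusters, 3.93% and 10.2% at 5000 UMIs, and 18.8% in female-like mutant cells. At 5000 UMIs, with the gate applied again to thinned counts, the sensory share was 28.0374% and 11.9%. The autonomic share was then 13.1% and 2.97%, and the control motor share 0%. With at least 3 markers the sensory share was 28.3% and 14.9644%, the mutant GABAergic share 24.7% and the control motor share 0%. With 1 marker sufficient the mutant shares were 29.2% sensory, 8.08% autonomic and 35.4% GABAergic. In female-like mutant neurons 38.2% were GABAergic-marked and 1.36% motor-marked. The control motor share was also 0% with 2 UMIs of each gate gene, with mitochondrial UMIs under 5% and without cells holding blood, muscle or EC markers (added). Counting genes with at least 1 UMI in place of 20, 2368 of 22543 genes were more than 1.5-fold higher in mutant neurons and 6887 lower, against 1345 and 2378 of 14256. Depth limits Neurog2 and Neurod4 most, with 9 and 4 control UMIs in neurons. Co-detection with Phox2a moved widely by setting. Of mutant Phox2a neurons 7.14% to 40% held Pou4f1, 28.6% to 80% Tlx3 and 21.4% to 50% Gata3. Of control ones 0% to 4% held Pou4f1, 21.4% to 53.6% Tlx3 and 57.1% to 85.7% Gata3. Scrublet's highest-scoring cells included 6 control and 32 mutant neurons, which were kept in the co-detection counts of the report.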

Other observations

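At the finer clustering (resolution 0.8) a small neuron-like cluster of 15 control and 5 mutant cells was led by Olfr344 and Gfy. Gng13 was further down its leading genes, and these 3 are genes of olfactory sensory neurons. Nhlh1 was in 14 of the 15 control and all 5 mutant cells, Neurod1 in 7 and 3, Neurog1 in 6 and 3, Pou4f1 in 1 and 1, and Tlx3 in 0 and 1. Another small cluster of 16 control and 11 mutant cells was led by Nwd2 and Gm28526. Its leading genes also included Scn10a and Scn9a, sodium channel genes of nociceptive neurons. Outside neurons, Phox2a had 31.0 CPM in neural crest and Schwann-like cells of the control library, in 3 of 54 cells, and none in 24 mutant cells of that class, where the interval for cells with a UMI reaches 14.2%.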
